A study of Mus musculus with 2 samples.

Results

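Gad1, Gad2, Slc32a1, Abat, Gabra2 and Gabrd encode enzymes, a transporter and receptor subunits of GABA signalling. They were chosen by name, as every array spot that was not a control and whose gene symbol was 1 of these 6 or an older synonym. They are 6 of the 21441 genes measured and have 12 of the 41174 probes. They were followed in mouse hypothalamus across 2 diets and 2 times of day, in a study that asked how a PPARα agonist affects gene expression there. The agonist was bezafibrate, a lipid-lowering fibrate whose targets are the PPAR nuclear receptors, given as 0.5% of the feed.

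There were 4 pools, each an equal mixture of total RNA from 4 mice, and each pool was hybridized to 1 one-colour (Cy3) whole-genome oligonucleotide array. The pools were control mice at ZT10, bezafibrate mice at ZT10, control mice at ZT22 and bezafibrate mice at ZT22, where ZT counts the hours from lights on. By the labels, mice started at 8 weeks of age on normal feed for 2 weeks, had bezafibrate feed for 2 weeks and then normal feed for 5 weeks, and they do not state when within these weeks the brains were taken. The labels give neither strain nor sex. A square block of brain that contained the hypothalamus was dissected, so each pool could hold neighbouring tissue. With 1 array per diet and time, no spread between mice or pools was measured, and a pair of arrays gives no p-value. The 4 arrays were on 1 slide, and both control arrays lay at positions 1 and 2 and both bezafibrate arrays at positions 3 and 4, so diet and the side of the slide cannot be told apart.

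Signals are given in the scanner software's intensity units as deposited, and ratios compare signals after each array was divided by its own 75th percentile. That percentile was 1010, 1050, 1010 and 893 units on the control ZT10, bezafibrate ZT10, control ZT22 and bezafibrate ZT22 arrays. The lower value of the last array means that an equal signal there is a higher scaled level. Each log2 ratio is followed, after ±, by the software error, combined from the errors that the scanner software assigns to its 2 signals. It was 0.20 for every ratio of the 6 genes. The assigned signal errors were near a fixed share of the signal. On the control ZT10 array they were 1150 of 11500 units for Gad1 and 10700 of 107000 for Slc32a1. The software error is therefore no measured spread of these spots, and it covers neither mice nor pools. A ratio was called when it reached 1.5-fold in either direction and the probe was well above background on both arrays.

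Markers of the tissue were detected, and so were those of neighbouring regions. Over all genes, 15916 of 21441 were above background on all 4 arrays, as were 12 of 12 striatum and 10 of 10 thalamus markers. Detection alone therefore does not set the hypothalamus apart. Of 11 measured hypothalamus markers, 10 were above background on both arrays of each comparison, among them Hcrt, the orexin precursor of the lateral hypothalamus, at 73600, 72000, 63100 and 69800 units on the arrays in the order above. Otp, a transcription factor of the neuroendocrine lineage, was above background on the bezafibrate ZT22 array alone. Marker levels also differed between arrays. Of the 10 hypothalamus markers, 10 were lower with bezafibrate at ZT10 (median log2 ratio -0.17), among them Pomc at -1.15 and Avp at -0.67, and 5 were lower at ZT22 (median 0.00). For time, 6 of 10 were higher at ZT22 in control mice (0.06) and 10 of 10 in bezafibrate mice (0.34).

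The bezafibrate ZT22 array stood apart in choroid plexus markers, of which 6 of 8 were at least 1.5-fold higher than in control at ZT22 (median log2 ratio 1.09), with Ttr, transthyretin, at 58.8, 62.7, 110 and 1320 units. On the same array 8 of 8 oligodendrocyte markers were lower than in control at ZT22 (median -0.33) and lower than with bezafibrate at ZT10 (-0.24). Pituitary transcripts differed most for Prl, at 380, 17.7, 59.2 and 2.41 units, and Gh, at 201, 15.9, 63.9 and 9.25 units, both highest on the control ZT10 array and not above background on the bezafibrate ZT22 array. The summed scaled signal of the pituitary list, in which Cga is brightest, was 5.50, 3.33, 4.59 and 6.07. General neuronal genes lay close to even by their medians, with median log2 ratios of 12 genes between -0.04 and 0.03 over the 4 comparisons. Single genes departed from this, most for time in bezafibrate mice. There the brightest Syn1 probe was called at 0.75, but its other probe above background gave -0.20, and Syp was at -0.43.

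GABA is the main inhibitory transmitter of the adult brain, and a large share of hypothalamic neurons use it, including the Agrp neurons of the arcuate nucleus and nearly all neurons of the suprachiasmatic clock. Glutamate decarboxylases (Gad1 and Gad2) make GABA from glutamate, the vesicular transporter (Slc32a1) loads it into synaptic vesicles, and GABA transaminase (Abat) breaks it down in mitochondria of neurons and astrocytes. Released GABA opens GABA-A receptors, chloride channels assembled from several subunits. Receptors with the alpha subunit encoded by Gabra2 sit largely at synapses. Those with the delta subunit encoded by Gabrd lie outside synapses, respond to low ambient GABA and to neurosteroids, and carry a tonic current.

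On the control arrays the probes of the presynaptic genes were among the brightest of the 21441 genes measured. The Slc32a1 probe lay at percentile 99.7 of signal at ZT10 and 99.8 at ZT22. The Abat probe followed at percentiles 97.9 and 97.8, the brighter Gad2 probe at 94.9 and 95.3, and the brighter Gad1 probe at 92.8 and 92.9. The receptor subunits were dimmer, with Gabra2 at percentiles 74.2 and 74.4 and Gabrd at 70.8 and 62.9. This order describes the brightness of different probes, which also depends on how well each binds, so it is no order of transcript number. It was the same at both times. Fewer cells of a type and less RNA per cell cannot be told apart in such tissue pools, here and in every result that follows.

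**Figure D1:**
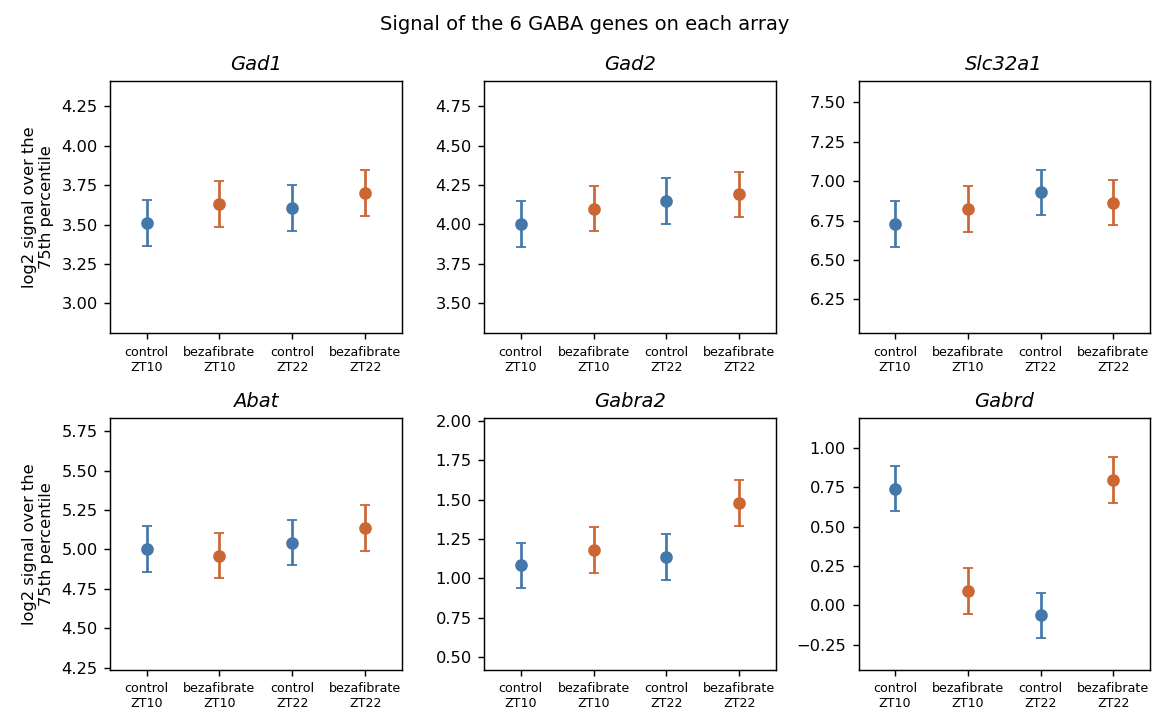
Log2 signal over the array's 75th percentile (vertical axis) of the brightest probe of each of the 6 genes on the 4 arrays (horizontal axis), control in blue and bezafibrate in orange, with 1 array per point. Bars are the scanner software's error of that signal, and every panel spans the same log2 height. Gabrd ran from -0.06 to 0.80, while Gad1, Gad2, Slc32a1 and Abat each stayed within 0.21 between their lowest and highest array.

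By their brightest probes, the genes of GABA synthesis showed nearly level signals. Gad1, which encodes the larger glutamate decarboxylase, read 11500 units on the control ZT10 array, 13000 on the bezafibrate ZT10 array, 12300 on the control ZT22 array and 11600 on the bezafibrate ZT22 array. Once scaled, these became log2 levels of 3.51, 3.63, 3.61 and 3.70, so that control ZT10 was the lowest and bezafibrate ZT22 the highest. The bezafibrate to control log2 ratio of Gad1 was 0.12 ± 0.20 at ZT10 and 0.09 ± 0.20 at ZT22. The ZT22 to ZT10 ratio was 0.10 ± 0.20 in control and 0.07 ± 0.20 in bezafibrate mice. None of these exceeded the software error. A probe for the same Gad1 transcript gave 0.01 and 0.14 for diet and 0.15 and 0.27 for time, each ± 0.20. Its 0.27, for time in bezafibrate mice, was beyond the software error. The third Gad1 probe was not well above background on any array.

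Gad2, which encodes the smaller, terminal-enriched decarboxylase, behaved alike. Its brightest probe, listed in the array annotation under the older clone name 6330404F12Rik, read 16200, 18000, 17900 and 16300 units in the same order of arrays. The log2 ratio was 0.10 ± 0.20 for diet at ZT10, 0.04 ± 0.20 for diet at ZT22, 0.14 ± 0.20 for time in control mice and 0.09 ± 0.20 for time in bezafibrate mice. The probe annotated to Gad2 itself read 9450, 11100, 10700 and 9180 units. Its ratios were 0.18 and -0.04 for diet and 0.18 and -0.04 for time, so at ZT22 and in bezafibrate mice the sign depended on the probe, with every value inside the software error. Across the 4 arrays, the centred log2 levels of Gad1 and Gad2 differed by a root mean square of 0.026. Many genes were as alike, and Gad2 ranked 313 among all genes by likeness to Gad1.

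Slc32a1 encodes the vesicular GABA transporter, which neurons need to release GABA by exocytosis. It read 107000 units on the control ZT10 array, 119000 on bezafibrate ZT10, 123000 on control ZT22 and 104000 on bezafibrate ZT22. Its largest ratio was for time in control mice, at 0.20 ± 0.20 or 1.15-fold higher at ZT22, which did not exceed the software error. The other ratios were 0.10 and -0.06 for diet at ZT10 and ZT22 and 0.04 for time in bezafibrate mice. The signal of this probe came on every array from the scan at low detector gain, scaled up by the software, and no spot of the 6 genes was saturated.

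Abat encodes GABA transaminase, the enzyme that starts GABA breakdown. Its probe read 32400, 32700, 33300 and 31400 units in the same order, also from the low-gain scan. Diet ratios were -0.04 ± 0.20 at ZT10 and 0.09 ± 0.20 at ZT22, and time ratios were 0.04 ± 0.20 in control and 0.18 ± 0.20 in bezafibrate mice. The other Abat probe was not well above background on any array. For the whole presynaptic set of Gad1, Gad2, Slc32a1 and Abat, the range between lowest and highest array was 1.13- to 1.15-fold, and 41.7% to 49.8% of all genes above background on the 4 arrays had a smaller range. By their brightest probes, these 4 genes therefore varied about as much as the middle of all genes. The other Gad1 probe above background ranged more widely, from a scaled log2 level of 3.31 to 3.60.

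Gabra2, the synaptic alpha subunit, gave probe-dependent values. Its brightest probe read 2140, 2380, 2220 and 2490 units on control ZT10, bezafibrate ZT10, control ZT22 and bezafibrate ZT22, with the last array highest after scaling. The diet ratio by this probe was 0.10 ± 0.20 at ZT10 and 0.34 ± 0.20 at ZT22, the latter 1.27-fold higher with bezafibrate and above 96.0% of genes. The 2 other Gabra2 probes gave 0.02 ± 0.20 and 0.07 ± 0.20 for diet at ZT22, so the higher value was seen on 1 of 3 probes. For time in bezafibrate mice the 3 probes gave 0.30, 0.21 and 0.30, all higher at ZT22 and beyond the software error. For time in control mice they gave 0.05, 0.25 and 0.29. At ZT22 with diet the probes of Gabra2 differed by an SD of 0.17 in log2 ratio, against a median of 0.086 over 6401 genes with several probes.

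**Figure D2:**
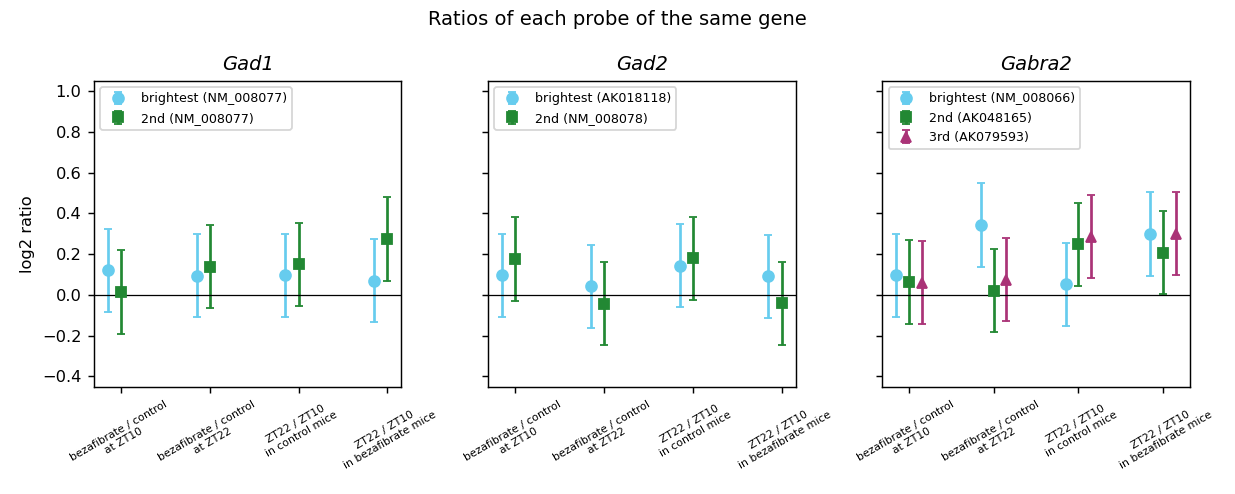
Log2 ratio (vertical axis) of every probe above background on all 4 arrays for Gad1, Gad2 and Gabra2 in the 4 comparisons (horizontal axis), with the accession each probe was designed to. Bars are the error of the ratio, combined from the scanner software's errors of its 2 signals. The brightest Gabra2 probe gave 0.34 for diet at ZT22, while the 2 others gave 0.02 and 0.07.

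A RefSeq window from 250 bases before to 50 bases after an annotated transcript start (assembly GRCm38.p6) was at hand for Gabra2, Gad1, Gad2 and Slc32a1. For Gad1, Gad2 and Slc32a1 the window lies inside the annotated span of the gene, downstream of its outermost start, which was not searched. None of the 4 windows held, on either strand, the clock E-box CACGTG, the D-box TTATGTAA, the nuclear receptor half-site AGGTCA, its direct repeat spaced by 1 base as bound by PPAR and RXR (the half-site, any base, the half-site again), or the cAMP response element TGACGTCA. Of 32851 windows of the same length, 7.15%, 0.938%, 16.3%, 0.0396% and 1.79% held these motifs. The absence covers these letters in these windows only. A GC box, GGGCGG or its complement, was found at -205 and 6 in the Gabra2 window and at -8 in the Gad1 window, and 35.7% of all windows held it. The TATA box TATAAA or its complement was found at -141 in the Gad1 window (13.6% of all windows), and the half-site of the cAMP response element, TGACG or its complement, at -33 in the Gad2 window (20.8%). All 4 windows were richer in G and C than the median window of 52.7%, at 70.0% for Gabra2, 60.0% for Gad1, 61.3% for Gad2 and 63.3% for Slc32a1. The bases before the Gabra2 start are printed because, of the 4 windows, only this one lies at the outer edge of its gene. They occupy chr5:71095850-71096099 on the minus strand, are written 5′ to 3′, and have the GC box in capitals.
Gabra2: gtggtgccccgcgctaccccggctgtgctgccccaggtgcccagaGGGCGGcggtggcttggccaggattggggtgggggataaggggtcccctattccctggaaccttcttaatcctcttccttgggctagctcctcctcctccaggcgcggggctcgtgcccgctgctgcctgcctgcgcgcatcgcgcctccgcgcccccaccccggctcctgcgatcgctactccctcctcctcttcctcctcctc

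Gabrd, the delta subunit of extrasynaptic GABA-A receptors, was the member that differed most between arrays. Its single probe read 1690 units on the control ZT10 array, 1120 on the bezafibrate ZT10 array, 967 on the control ZT22 array and 1550 on the bezafibrate ZT22 array. The scaled log2 levels were 0.74, 0.09, -0.06 and 0.80, so control ZT10 and bezafibrate ZT22 were high and the 2 others were low. The high arrays differed from each other by 0.05 and the low arrays by 0.16, each within the software error of a ratio, whereas 0.65 separated the lower of the high arrays from the higher of the low ones. The range over the arrays was 1.81-fold, and 96.2% of genes above background on all 4 arrays had a smaller one.

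With bezafibrate, Gabrd was 1.57-fold lower at ZT10 (log2 ratio -0.65 ± 0.20) and 1.81-fold higher at ZT22 (0.86 ± 0.20). Between times, it was 1.75-fold lower at ZT22 than at ZT10 in control mice (-0.81 ± 0.20) and 1.63-fold higher at ZT22 in bezafibrate mice (0.70 ± 0.20). It was the 1 member of 6 called in each comparison. Over all genes, 2.46% were called for diet at ZT10, 3.18% for diet at ZT22, 4.60% for time in control mice and 3.64% for time in bezafibrate mice. The 4 ratios rest on the same 4 arrays and are not independent of each other. The diet ratio at ZT22 exceeded that at ZT10 by 1.51 on the log2 scale, and 0.685% of genes had a larger difference in either direction. That difference was not tested, since each ratio rests on 1 pair of pools.

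**Figure D3:**
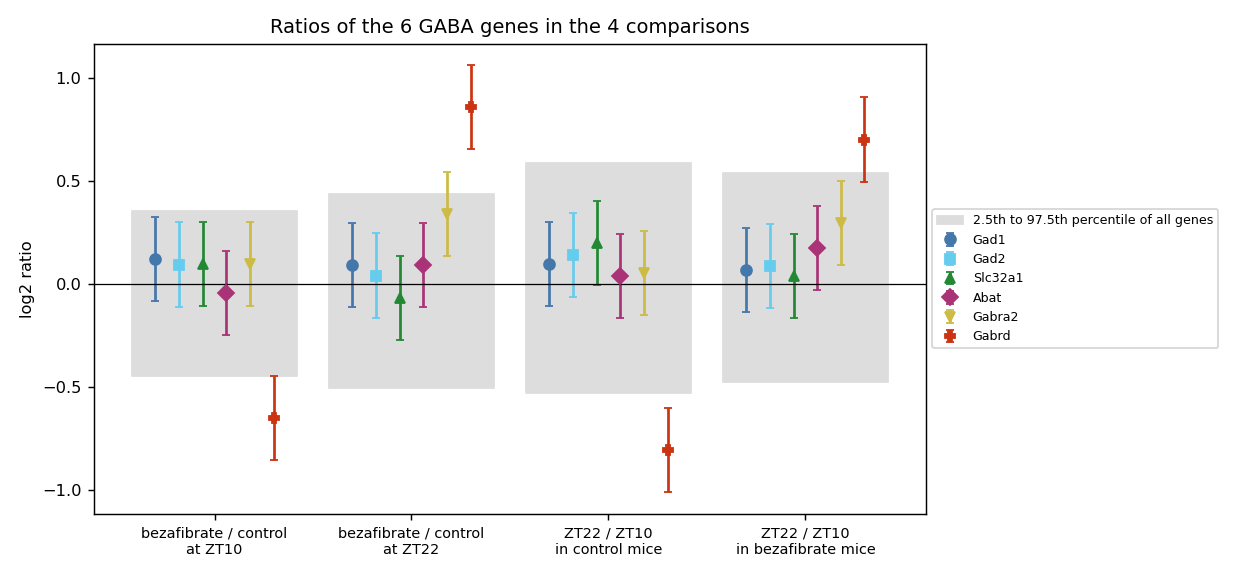
Log2 ratio (vertical axis) of the 6 genes in the 4 comparisons (horizontal axis), with 1 pair of arrays per comparison. Bars are the scanner software's error, and the grey band holds all genes above background on both arrays except the 5% with the most extreme ratios. Gabrd lay outside the band in all 4 comparisons, at -0.65, 0.86, -0.81 and 0.70, and the points of the 5 other genes lay inside it.

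The other 5 members were not called. Their log2 ratios ran from -0.04 to 0.12 for diet at ZT10, from -0.06 to 0.34 for diet at ZT22, from 0.04 to 0.20 for time in control mice and from 0.04 to 0.30 for time in bezafibrate mice. Counting Gabrd, 4, 5, 5 and 6 of the 6 genes were higher in these comparisons, with median log2 ratios of 0.10, 0.09, 0.07 and 0.13. Over all genes, 52.7%, 52.2%, 58.1% and 59.3% were higher, and the medians were 0.01, 0.01, 0.03 and 0.04. At the lowest fold threshold tried, Gabra2 joined Gabrd for diet at ZT22, and 1, 2, 1 and 1 of the 6 members were called, against 7.99%, 9.76%, 13.0% and 12.1% of all genes. At 2-fold 0 of 6 were called in each comparison, against 0.682%, 1.08%, 1.61% and 0.750% of all genes.

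The alpha subunits known to pair with the delta subunit were not called. Gabra4, which encodes the alpha subunit that joins delta in thalamus, striatum and dentate gyrus, read 4570, 4090, 4210 and 4180 units. Its log2 ratios were -0.22 ± 0.20 and 0.17 ± 0.20 for diet at ZT10 and ZT22 and -0.12 ± 0.20 and 0.27 ± 0.20 for time in control and bezafibrate mice, which had the signs of Gabrd at a smaller size. Gabra6, whose product joins delta in cerebellar granule cells, was above background on the control ZT22 array alone, at 36.1 units, where Gabrd was lowest. Both were singled out after their values were seen.

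Markers of brain regions next to the hypothalamus in which delta subunits are known also differed between arrays. Of 10 thalamus markers, all above background on every array, 9 were lower with bezafibrate at ZT10 (median log2 ratio -0.41) and 9 were lower at ZT22 (-0.23), where Gabrd was higher. For time, 9 of 10 were lower at ZT22 in control mice (-0.22), and 7 of 10 were higher in bezafibrate mice (0.05). Their summed scaled signal was 24.8, 22, 24.4 and 22.2, against a Gabrd pattern that was high on the first and last of these arrays. This sum follows mostly the brightest markers, Zic1 and Calb2. Zic1 was higher by 0.16 for diet at ZT10 and by 0.34 for time in control mice, against the direction of the list. Tnnt1 was at -1.10 and Ramp3 at -0.81 for diet at ZT10.

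Of 12 striatum markers, all above background on every array, 10 were lower with bezafibrate at ZT10 (median -0.05) and 11 were higher at ZT22 (0.41). For time, 9 of 12 were lower at ZT22 in control mice (-0.19), and 11 of 12 were higher in bezafibrate mice (0.31). Their median thus had the sign of Gabrd in all 4 comparisons. The medians of other lists did too, at -0.70, 0.26, -0.20 and 0.52 for the pituitary markers. These pituitary medians cover 7, 5, 7 and 5 genes. Prl and Gh, not above background on the bezafibrate ZT22 array, are left out of both comparisons with that array. Both read lower on it than on the control ZT22 and bezafibrate ZT10 arrays, whereas Gabrd read higher. The medians were -0.01, 0.03, -0.04 and 0.02 for general neuronal genes and -0.04, 0.05, -0.03 and 0.03 for astrocyte markers. For peptide and calcium-binding genes of GABA neurons they were -0.07, 0.13, -0.05 and 0.19. For the GABA-B receptor and auxiliary genes they were -0.04, 0.03, -0.05 and 0.16. The summed scaled signal of the striatum list, in which Penk is brightest, was 77.6, 76.9, 71.5 and 97.1. Of the glutamatergic neuron genes above background, 6 of 6 were lower with bezafibrate at ZT10 (median -0.22) and 5 of 7 at ZT22 (-0.06), while 5 of 7 were lower at ZT22 in control mice (-0.03) and 6 of 6 higher in bezafibrate mice (0.28). Their summed scaled signal, in which Slc17a6 is brightest, was 8.09, 7.03, 7.68 and 7.39. The hypothalamus markers given above were likewise lower with bezafibrate at ZT10 and higher at ZT22 in bezafibrate mice, as Gabrd was. For diet at ZT22 and time in control mice their medians were 0.00 and 0.06, against 0.86 and -0.81 for Gabrd. Of the 2 arrays high in Gabrd, bezafibrate ZT22 had more choroid plexus and less oligodendrocyte signal, and control ZT10 did not. The median centred log2 level was -0.32, -0.45, -0.18 and 0.94 for choroid plexus markers. It was 0.05, 0.01, 0.12 and -0.22 for oligodendrocyte markers. The part of these regions and tissues in the Gabrd values was not tested. Without the bezafibrate ZT22 array, 2 Gabrd ratios remain, -0.65 for diet at ZT10 and -0.81 for time in control mice.

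**Figure D4:**
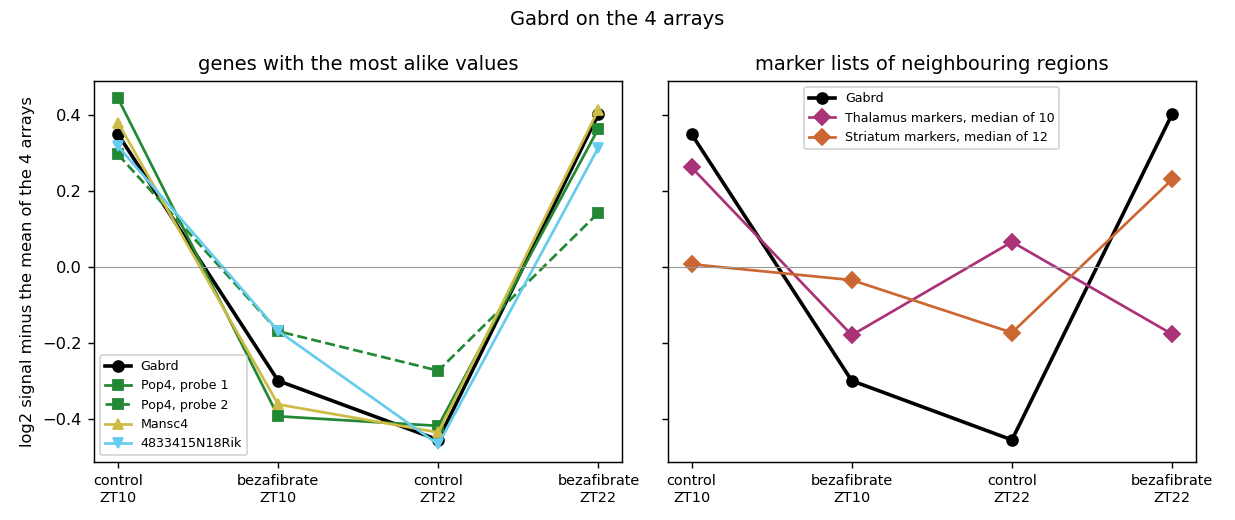
Log2 signal minus the mean of the 4 arrays (vertical axis) on each array (horizontal axis), for Gabrd and its 3 nearest genes on the left, and for Gabrd and the median of 10 thalamus and 12 striatum markers on the right. Lines only join points of the same gene or list, and each point is 1 array. Gabrd was high on control ZT10 and bezafibrate ZT22, the thalamus median ran 0.26, -0.18, 0.07 and -0.18 over the arrays from left to right, and the striatum median ran 0.01, -0.03, -0.17 and 0.23.

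Likeness to each member was measured as the root mean square difference of centred log2 levels over the 4 arrays, among the other 15915 genes above background on all of them. For Gabrd, 3 genes came within 0.1. They were Mansc4 at 0.037, Pop4 (a subunit of ribonuclease P) at 0.072 and 4833415N18Rik at 0.081. Mansc4 was dim, at 24.3, 15.1, 13.8 and 22 units, and 4833415N18Rik read 105, 77.9, 60.9 and 92.6 units. Pop4 read 2510, 1460, 1380 and 2100 units, and its other probe followed less closely, with log2 ratios of -0.47 and 0.42 for diet and -0.57 and 0.31 for time.

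The remaining members, whose signals varied little, had many near neighbours. Within 0.1 lay 8396 genes for Gad1, 8457 for Gad2, 8087 for Slc32a1, 8705 for Abat and 1251 for Gabra2. The nearest were Zfp61, Agt and Heca for Gad1, Zfp35, Dcaf12l1 and Amer3 for Gad2, and Pip4k2a, Hrh1 and Mtss1 for Slc32a1. Among those of Abat were Ero1a and Snph, and those of Gabra2 were Pcdhb3, 4930456L15Rik and 2810455O05Rik. Gabrd lay 0.34 to 0.43 from each of the 5 other members.

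Averaged over the other factor with limma across the 4 arrays, no member passed the test for diet or for time. The fit had 1 residual degree of freedom and treats diet as acting alike at both times. Of 17557 genes tested, 0 (0.00%) passed an adjusted p of 0.05 for diet and 0 (0.00%) for time, and 948 (5.40%) and 1876 (10.7%) had an unadjusted p under 0.05. No member was among either. The diet effect of Gabrd was 0.10 with a standard error of 0.50 and a limma adjusted p of 0.980, since its opposite ratios at the 2 times cancel in this model. The largest diet effect among the others was that of Gabra2, 0.22 with a standard error of 0.095 and an adjusted p of 0.872. For time, limma adjusted p-values of the members ran from 0.456 for Gad2 to 0.964 for Gabrd.

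Other genes of GABA signalling were read through 5 lists of 46 genes, of which 44 were measured and 41 were above background in every comparison. Among these 41, 21 were higher and 20 lower with bezafibrate at ZT10, and 25 were higher and 16 lower at ZT22. For time, 26 were higher and 13 lower at ZT22 in control mice, and 30 were higher and 11 lower in bezafibrate mice. Medians were 0.02, 0.02, 0.05 and 0.05. Calls numbered 0 and 0 for diet and 2 and 2 for time, all higher at ZT22, against 4.60% and 3.64% of all genes called for time, so the share of the lists was near that of all genes.

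Both genes called for time encode membrane GABA transporters. Slc6a13 encodes a GABA transporter known from meninges, liver and kidney, and it read 730, 738, 1250 and 1140 units. It was higher at ZT22 by 0.78 ± 0.20 in control and 0.86 ± 0.20 in bezafibrate mice, and its other probe gave 0.75 and 0.85. Slc6a12, the betaine and GABA transporter, read 99.2, 99.5, 218 and 145 units, and was higher at ZT22 by 1.14 ± 0.21 and 0.78 ± 0.21.

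Meningeal and fibroblast markers, a list added after these values were seen, were higher at ZT22 in 11 of 12 genes in control mice (median 0.32) and in 12 of 12 in bezafibrate mice (0.62). All 12 were above background on every array, with a summed scaled signal of 15.9, 13.9, 19.2 and 19.6. Their part in the 2 transporters' values was not tested. The glial Slc6a11 was higher with bezafibrate by 0.35 and 0.38 on its brighter probe, but by 0.02 and -0.10 on the other.

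Among 17 GABA-A receptor subunits beyond Gabra2 and Gabrd, 16 were measured, 13 were above background in every comparison, and none was called. Gabra6, Gabrp and Gabrr2 were the 3 that were not. The lowest ratio was that of Gabrg3 for diet at ZT22, -0.57 ± 0.21, whose other probe gave -0.04. Across the list the highest and lowest ratios were Gabra3 at 0.19 and Gabre at -0.22 for diet at ZT10, and Gabra4 at 0.17 and Gabrg3 for diet at ZT22. For time they were Gabrq at 0.32 and Gabre at -0.30 in control mice, and Gabra4 at 0.27 and Gabrg3 at -0.20 in bezafibrate mice.

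No gene of the 5 GABA-B receptor and auxiliary genes was called. For diet the lowest ratios were those of the receptor subunits Gabbr2 at ZT10 (-0.28) and Gabbr1 at ZT22 (-0.12), and the highest was that of Kctd12, an auxiliary subunit, at 0.07 and 0.13. For time in control and bezafibrate mice the lowest was Kctd16 at -0.40 and -0.30 and the highest Kctd8 at 0.25 and 0.23, both auxiliary subunits. Of the other Kctd16 probes, the brighter gave 0.64 and 0.31 for time, so the sign depended on the probe. Of the 7 genes of the inhibitory postsynapse and chloride transport none was called, with Gphn, the gephyrin scaffold, at 0.11 and 0.21 for diet. Slc12a2, the chloride importer, was at 0.08 and -0.19 for diet and 0.04 and -0.23 for time, and Slc12a5, the chloride exporter of neurons, was at -0.11 and 0.05 for diet and 0.00 and 0.16 for time.

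Transcription factors of GABA neurons had the highest medians of the 5 lists for diet, with 7 of 7 measured genes higher at ZT10 (median 0.20) and 4 of 7 at ZT22 (0.12). For time, 6 of 7 were higher in control mice (0.21) and 5 of 7 in bezafibrate mice (0.06). Lhx6, a factor of GABA neurons derived from the ventral forebrain and of the zona incerta, read 2620, 3380, 3210 and 3090 units, with ratios of 0.31 and 0.12 for diet. Dlx6 was at 0.07 and 0.34 and Meis2 at 0.20 and 0.20 for diet. None of the 7 was called.

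Peptide and calcium-binding genes carried by subsets of GABA neurons contained 2 called genes of 8 in each diet comparison, Npy and Agrp, against 2.46% and 3.18% of all genes. Both are made by the same GABAergic arcuate neurons. Npy was higher with bezafibrate by 0.72 ± 0.20 at ZT10 and 1.26 ± 0.20 at ZT22, and Agrp by 0.98 ± 0.20 and 1.68 ± 0.20. In the same comparisons the brightest probes of Gad1, Gad2 and Slc32a1, genes that these neurons share with other GABA neurons, differed by at most 0.12, and the other probe of Gad2 gave 0.18 at ZT10 and that of Gad1 0.14 at ZT22.

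**Figure D5:**
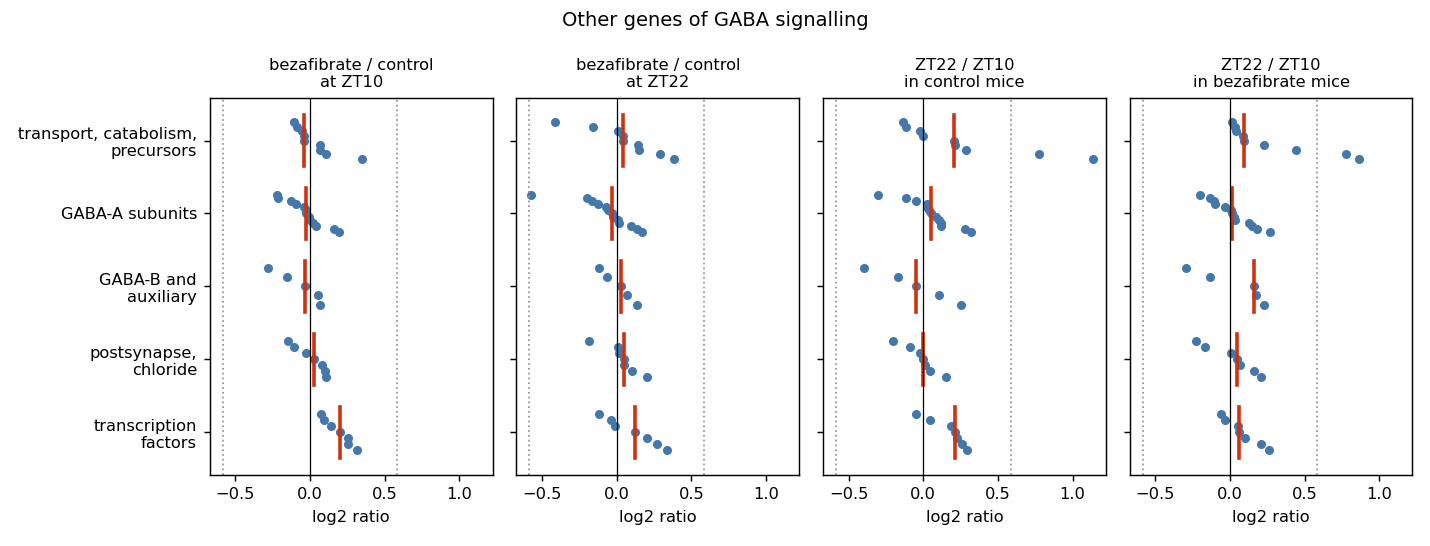
Log2 ratio (horizontal axis) of 41 other GABA signalling genes above background in the 4 comparisons (panels), grouped by the 5 lists (vertical axis), with 1 pair of arrays per panel. Each point is a gene, red bars are list medians and dotted lines mark 1.5-fold. The 2 points beyond the lines in each time comparison are Slc6a12 and Slc6a13.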

How the data were processed

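RNA of 4 pools was measured on 4 Agilent arrays. Per the file headers, the authors extracted the spots with Feature Extraction 9.5.1.1. The deposited intensity is background-subtracted and detrended, written with 3 significant digits, and not normalized between arrays. Per the labels, the deposited ratio of the value table divides the bezafibrate by the control array for present spots, and it was used as an alternative.

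From there, the 75th percentile over 43379 non-control features was subtracted on the log2 scale, outlier spots were left out and spots of a probe were averaged. Groups came from the labels, where each sample holds a bezafibrate and a control array. Of the probes, 22951 were named by accession, 5850 by symbol and 3944 by older symbol through RefSeq (GRCm38.p6), 2225 kept their name in the files and 6204 had none. A gene took its brightest probe. The number of arrays limits the precision. Averages over diet or time used limma 3.58.1 with R 4.3.3 (Benjamini-Hochberg adjustment). The code was run on simulated large changes with equal noise in every gene. That run checked the estimated ratios and does not check adjusted p-values on these arrays.

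Alternatives were normexp with offset 50, quantile and median scaling, mean of probes, a minimum of 100 units, the deposited ratio, thresholds of 1.25- and 2-fold, a variance trend, and genes above background on all 4 arrays. Normexp used the median spot signal, because the array data held no column of the planned mean signal. Members and lists were chosen with earlier results of these data known. All members were named, with other list genes at 1.5-fold or with the extreme ratios of a GABA list, and the 3 nearest genes of each member. For marker lists outside GABA signalling only genes on which a result turns are named. Other probes, Slc12a5 and the named hypothalamus, thalamus, striatum, glutamatergic, general neuronal, choroid plexus and pituitary markers were added after values were seen. Single values of some genes that this rule names are not reported here.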

Additional observations from a re-analysis of the deposited data

Results flagged for a closer look

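Gabrd stood out because its difference between diets ran in opposite directions at the 2 times. The log2 ratio of bezafibrate over control was -0.65 at ZT10 and 0.86 at ZT22. Equally, the ratio of ZT22 over ZT10 was -0.81 in control mice and 0.70 in bezafibrate mice. Each value rests on 1 pair of pools and 1 spot per array, and the difference between the ratios was not tested. The 2 pairs of ratios describe the same 4 signals.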

How the results depend on the processing

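Recomputed under every alternative, the 132 log2 ratios of the 6 genes each moved by less than the software error, and no called ratio changed sign. Part of these ratios could not move, so their stability is no check. The minimum-signal setting filters genes and left every member ratio unchanged. The mean of probes left Slc32a1, Abat and Gabrd unchanged, each with 1 probe above background. Median scaling left the time ratios in control mice unchanged. For Gabrd, only normexp, quantile scaling, median scaling and the deposited ratio could change a value. The deposited ratio covers diet only and was nearly the signal ratio plus a constant, with 99.6% of spots within 0.05 of that shift at each time. Median scaling likewise shifts all genes of a comparison alike. These 2 settings could therefore change Gabrd by little more than a shift common to all genes. Gabrd stayed the 1 member called under every alternative run at 1.5-fold. Its ranges were -0.74 to -0.62 and 0.77 to 0.87 for diet at ZT10 and ZT22. For time they were -0.83 to -0.73 in control and 0.68 to 0.70 in bezafibrate mice. The authors' deposited table gave Gabrd ratios of 0.599 and 1.72 for diet. At 2-fold the members called numbered 0 in each of the 4 comparisons, and at the lowest fold threshold 2 for diet at ZT22, Gabrd and Gabra2. Uncalled ratios crossed 0 for Slc32a1 over time in bezafibrate mice (-0.10 to 0.04), Abat over time in control mice (-0.05 to 0.04) and Gad2 for diet at ZT22 (-0.03 to 0.06). The brightest Gabra2 probe's 0.34 for diet at ZT22 became 0.15 as the mean of its probes.

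Over all genes, calls for diet at ZT10, diet at ZT22, time in control and time in bezafibrate mice numbered 396, 516, 754 and 582. Normexp gave 100, 141, 217 and 167, and a minimum of 100 units gave 102, 137, 220 and 188. The lowest fold threshold gave 1288, 1583, 2132 and 1945, and a 2-fold threshold 110, 175, 264 and 120. With the 100-unit minimum, limma called 1 gene for diet and 1 for time, neither a member, and 3 of 96 unadjusted member p-values over the 8 limma settings were under 0.05. No paired analysis was possible because each diet and time had 1 array. Leaving out an array leaves the averaged fit 0 residual degrees of freedom, so it was not run.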
